A study of Mus musculus with 12 samples.

Results

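miR-874 and miR-664 are a pair of mouse microRNAs, each made from a single hairpin gene in the annotation used here. Their 4 mature names, mmu-miR-874-3p, mmu-miR-874-5p, mmu-miR-664-5p and mmu-miR-664-3p, were selected from the 1915 mouse names of the deposited table. They were chosen by their rise in counts after ligation of the bile duct, among names that are not repeat sequence, so that rise is given here as a description with no test.

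The table counts small RNA reads in extracellular vesicles that were precipitated from blood plasma with a polymer reagent. The mice were male C57BL/6J, a common inbred laboratory strain, sampled 8 days after surgery. In the BDL group (6 libraries) the bile duct had been tied, so that bile backed up into the liver, and the sham group (6 libraries) had a control operation. No genotype, transgene or age is given for either group, and one protocol text names ligation for all 12 libraries, so the groups follow the sample titles and the treatment label. The tissue label names liver and the series title mRNA, while the site label names vesicles and the table lists mature microRNAs. The design text speaks of 6 animals in each group, but no label ties a library to an animal, so the spread between libraries may in part be technical.

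A microRNA is cut from a hairpin in a longer transcript, and the resulting duplex has a 5p and a 3p strand, of which one is usually kept by an Argonaute protein and the other is lost. The kept strand pairs with messenger RNAs through its seed, the bases near its 5′ end, and lowers their output. Many hairpins lie in introns of protein-coding genes, and some lie in small nucleolar RNAs (snoRNAs), which guide the chemical modification of other RNAs. In human tumour cells miR-874 has been described as lowering aquaporin-3, a water channel.

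Both hairpins are intronic. In GENCODE M21 on GRCm38, Mir874 (ENSMUSG00000077962.1) lies on chromosome 13 from 58023125 to 58023200 on the minus strand, in intron 8 of 14 of Klhl3, whose product is a substrate adaptor of a cullin ubiquitin ligase. Mir664 (ENSMUSG00000105770.1) lies on chromosome 1 from 185242975 to 185243043 on the plus strand, in intron 9 of 34 of Rab3gap2, which encodes a subunit of a complex that acts on the vesicle traffic protein Rab3. Each hairpin is on the strand of its host gene and overlaps none of its annotated exons. The hairpins from RefSeq (GRCm38.p6) are shown because their contexts differ, with the mature arms of Mir664 in capitals; arms are not marked in Mir874.
Mir664: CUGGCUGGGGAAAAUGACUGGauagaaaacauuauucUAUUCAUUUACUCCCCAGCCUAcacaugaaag
Mir874: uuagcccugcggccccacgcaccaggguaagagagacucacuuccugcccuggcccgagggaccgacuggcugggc

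The Mir664 hairpin also overlaps a snoRNA gene, all but its last 5 bases. Snora36b, an H/ACA snoRNA of 132 bases (chromosome 1, 185242907 to 185243038, plus strand), holds miR-664-5p at its bases 69 to 89, and holds the 22 bases of miR-664-3p so that they end at base 127, with 5 bases left to its 3′ end. Reads from pieces of Snora36b and reads from the mature arms cannot be told apart in this table. Among the spliced transcripts of other GENCODE genes, Snora36b was the 1 gene that shared a stretch of 18 bases with either miR-664 arm, and 0 genes shared one with the Mir874 hairpin. The mature arms are shown with the seed, bases 2 to 8, in capitals; 0 other mouse names in the RefSeq table have the seed of either.
miR-664-5p: cUGGCUGGggaaaaugacugg
miR-664-3p: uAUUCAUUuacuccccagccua

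The libraries held 121003 to 3506914 counts in BDL and 659302 to 2684636 in sham. Library BDL 4 was the shallowest, and there a count of 0 allows up to 23.98 CPM (counts scaled to a library size of 1000000, after edgeR's trimmed-mean scaling), against 0.624 CPM in BDL 1, the deepest. A sample code in the titles ends in 24 or 26, with 3 libraries of each ending per group, and its meaning is not given. Of 341 names that passed a filter on low counts, 146 (42.8%) were called, 84 (24.6%) higher and 62 (18.2%) lower in BDL, by edgeR's quasi-likelihood test at a Benjamini-Hochberg adjusted p under 0.05. Of the 4 arms, 3 passed the filter and 1, miR-874-5p, did not. The filter asked for at least 6 libraries at 6.57 counts per 1000000 reads or more, which miR-874-3p met in 6 BDL and 3 sham libraries, miR-664-5p in 6 and 6, and miR-664-3p in 6 and 5. The 3 tested arms were all among the 84 names called higher, which follows from how they were chosen.

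miR-874-3p had the largest fold change of the 3 tested arms. Its counts were 1, 60 and 458 (lowest, median and highest) in BDL, against 3, 13 and 27 in sham. On the CPM scale it stood at 7.99, 64.0 and 95.3 in BDL, against 4.57, 6.39 and 13.4 in sham. Of the 6 BDL libraries, 5 were above every sham library, and BDL 4 lay within the sham range. BDL libraries averaged 60.5 ± 31.4 CPM, and sham libraries 7.70 ± 3.21 CPM (SD, 6 libraries a group), and the fitted fold change was 8.12, a log2 fold change of 3.02 ± 0.42 (SE). By mean level it was 158th of 341 tested names in BDL and 317th in sham, and its fold change was the 14th highest. Whether more vesicles carried it or each held more copies cannot be told apart in these data, and the values are shares of the counted microRNA reads rather than amounts per volume of plasma.

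The value of BDL 4 rests on 1 read of miR-874-3p in 121003. The exact 95% (Clopper-Pearson) interval around it, 0.209 to 46.0 per 1000000 reads before scaling, covers counting error only. Without BDL 4 the log2 fold change of miR-874-3p was 3.12, and over the 12 fits that left out a library in turn it ran from 2.79 to 3.13.

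miR-874-5p, the other strand of the same hairpin, was close to absent. It had 1, 5 and 1 reads in BDL 1, 2 and 3, and 0 in the other 3 BDL libraries, against 0 in every sham library. Over all BDL libraries this is 7 reads, or 0.793 per 1000000, and a count of 0 in sham allows up to 3 reads over the group, or 0.286 per 1000000. Of the 7 reads, 5 came from BDL 2, and the other 5 BDL libraries held 2 reads between them, under the 3 that a count of 0 allows, so no fold is given. The 5p arm made up 7 of 772 miR-874 reads in BDL (0.907%, exact 95% interval 0.365 to 1.86%) and 0 of 81 in sham, which allows a share of up to 3.70%. The interval covers counting error only and leaves out the spread between libraries. At this depth the table could show miR-874 only as its 3p strand in sham.

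miR-664-5p was the arm whose groups did not overlap. Its counts were 10, 100 and 730 (lowest, median and highest) in BDL and 8, 40 and 71 in sham, where the totals were on the whole larger. On the CPM scale it had 60.6, 93.9 and 192.7 in BDL, against 12.2, 23.4 and 30.7 in sham. Every BDL library exceeded every sham library, which was so for 40 of the 341 tested names (11.7%). BDL libraries averaged 112 ± 49.96 CPM, and sham libraries 22.2 ± 6.36 CPM (SD, 6 libraries a group), a fitted 5.05-fold difference and a log2 fold change of 2.34 ± 0.34 (SE). By mean level it was 225th of 341 in sham, and its fold change was the 23rd highest. BDL 4, where miR-874-3p had 1 read, had 10 reads of miR-664-5p, at 79.9 CPM within the range of the other BDL libraries.

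**Figure D1:**
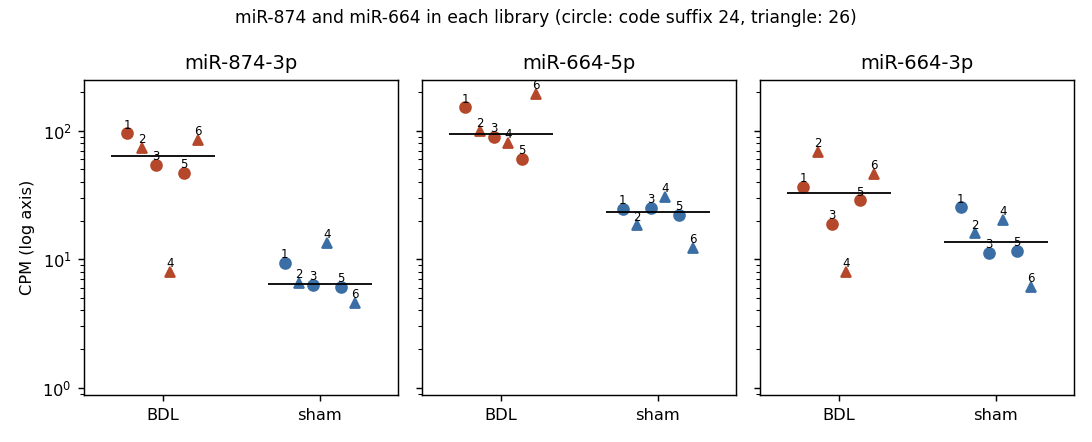
CPM on a log axis of miR-874-3p, miR-664-5p and miR-664-3p in each of 6 BDL and 6 sham libraries; numbers name the library, bars mark the group median, and circles and triangles are code suffix 24 and 26. miR-664-5p has no overlap between groups, while BDL 4 falls to 7.99 CPM for both other arms.

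miR-664-3p had the smallest fold change of the 3 tested arms. Its counts were 1, 41.5 and 175 (lowest, median and highest) in BDL and 4, 22 and 73 in sham. On the CPM scale it had 7.99, 32.6 and 68.3 in BDL, against 6.10, 13.7 and 25.3 in sham. Here 4 of 6 BDL libraries were above every sham library, and BDL 3 and BDL 4 were within the sham range. BDL libraries averaged 34.3 ± 21.3 CPM, and sham libraries 15.0 ± 6.91 CPM (SD, 6 libraries a group), a fitted 2.31-fold difference and a log2 fold change of 1.21 ± 0.42 (SE).

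The place of miR-664-3p among the 84 names called higher depended on the libraries and settings. Its log2 fold change was 1.15, 0.82 or 1.13 without BDL 1, 2 or 6, and 1.20, 0.91, 1.21, 1.07 or 0.97 without sham 2, 3, 4, 5 or 6, each no longer past the threshold. It was likewise not past it with no count filter (1.00), with the sample number as a block (1.18), with the 2 libraries of each leading code digit summed (0.96), or within suffix 24 (0.81) or suffix 26 (1.57) alone.

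**Figure D2:**
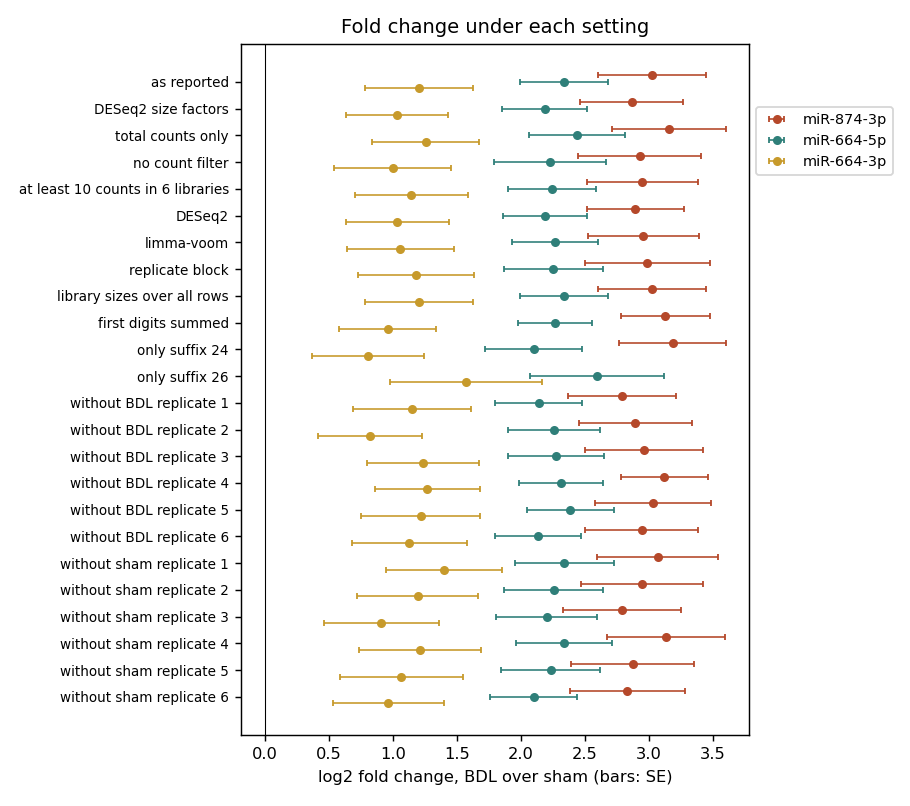
Log2 fold change of BDL over sham, with its SE as bars, for miR-874-3p, miR-664-5p and miR-664-3p in each fit: as reported, under other scalings, filters and tools, and without each library in turn. All points lie above 0, and miR-664-3p, from 0.81 to 1.57, is lowest throughout. miR-874-3p has no point within suffix 26 alone, where it did not pass the count filter.

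The shift between the miR-664 arms can be read within each library, where scaling plays no part. The 5p arm took 59.1, 80.7 and 90.9% of miR-664 reads (lowest, median and highest) in BDL, against 49.3, 63.0 and 69.2% in sham. BDL 2 (59.1%) and BDL 5 (67.9%) lay within the sham range, and the highest value, in BDL 4, rests on 11 reads. The log2 ratio of 5p to 3p, with 0.5 added to each count, averaged 1.79 ± 0.84 over BDL libraries and 0.62 ± 0.46 over sham libraries (SD, 6 a group), a difference of 1.17 that ran from 0.96 to 1.42 without each library in turn. The summed reads gave 78.7% in BDL (1233 of 1567, exact 95% interval 76.6 to 80.7%). In sham they gave 57.3% (236 of 412, 52.3 to 62.1%). These intervals cover counting error only and leave out the spread between libraries. BDL 1 alone gave 730 of the 1233 5p reads in BDL.

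Set among other hairpins, an arm shift of this size was not rare. Of 62 other hairpins with both arms tested, 8 moved further toward 5p in BDL and 29 moved further in either direction, with shifts from -3.12 to 3.17 and a median of -0.30. miR-486a and miR-486b, whose 5p counts are equal and 3p values close, are both among the 8 and the 29. In 4 of the 62 both arms were called higher in BDL, in 4 both were lower, and in 3 the arms were called in opposite directions. In 32 a single arm was called, and in 19 neither.

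**Figure D3:**
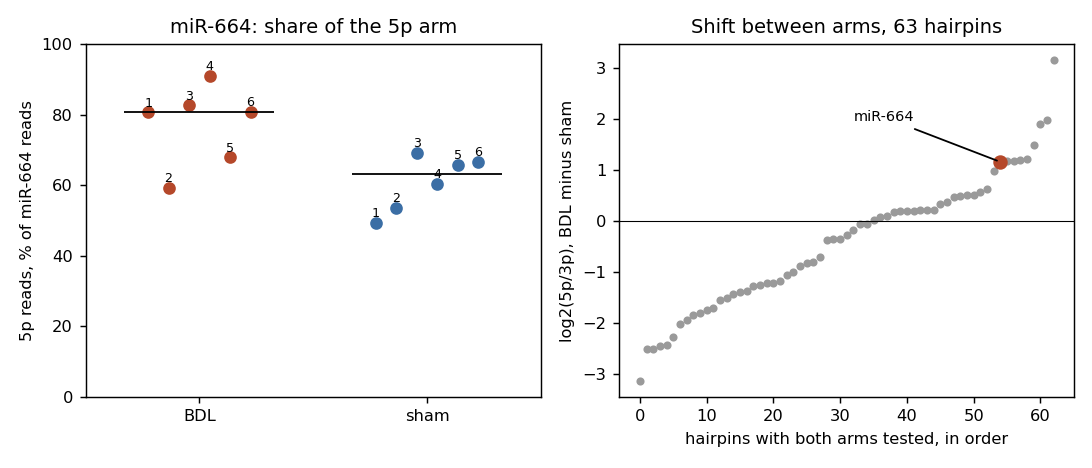
Left, the 5p arm as a percentage of miR-664 reads in each BDL and sham library (numbers name the library, bars mark the group median). Right, the BDL minus sham difference of the mean log2 ratio of 5p to 3p for 63 hairpins in rising order, in which miR-664 stands at 1.17.

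Code suffix did not enter the choice of the arms, so the difference of the BDL effect between suffixes was tested. The log2 difference, suffix 26 minus suffix 24, was -0.26 ± 0.80 (SE) for miR-874-3p (adjusted p = 0.874), 0.55 ± 0.65 for miR-664-5p (adjusted p = 0.665) and 0.87 ± 0.78 for miR-664-3p (adjusted p = 0.564), by edgeR's quasi-likelihood test over 341 names, 8 of which (2.35%) were past the threshold. These errors leave room for sizeable differences between suffixes. In BDL the suffix 26 libraries were also the shallowest, with 121003 to 666310 counts, against 1635616 to 3506914 for suffix 24. Suffix and depth cannot be told apart within BDL. In suffix 24 miR-874-3p had 47.2, 54.3 and 95.3 CPM in BDL, against 6.05, 6.27 and 9.35 CPM in sham. In suffix 26 it had 7.99, 73.7 and 84.4 CPM in BDL, against 4.57, 6.51 and 13.4 CPM in sham, and there it did not pass the count filter. The BDL over sham log2 fold change of miR-664-5p was 2.10 ± 0.38 within suffix 24 and 2.59 ± 0.52 within suffix 26 (SE).

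Other names whose hairpin overlaps a snoRNA, or a scaRNA of Cajal bodies, on the same strand gave a frame for miR-664. The table has 22 such names besides the miR-664 arms, of which 5 were tested, and of these 0 passed the test upward, 0 downward and 5 in neither direction, with a median log2 fold change of -0.30, against 0.03 over all 341 names. The most abundant in both groups, miR-1839-5p, had 290 ± 89.8 CPM over 6 BDL libraries and 409 ± 84.8 CPM over 6 sham libraries (SD; log2 fold change -0.48 ± 0.27, edgeR adjusted p = 0.162). miR-3535 had -0.86 ± 0.46 (edgeR adjusted p = 0.143), and 3 arms of miR-1843a and miR-1843b, close copies of each other that are uncertain as separate measurements, ran from -0.30 to -0.16. The difference between miR-664 and these names was not tested.

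Of 65 listed names that lie in introns of protein-coding genes, as both hairpins here do, 49 were tested, and 7 rose, 19 fell and 23 did not pass the test, where 24.6% of all 341 tested names were called higher and 18.2% lower. Their median log2 fold change was -0.63, against 0.03 over all tested names. The list was written by hand, leaves out the arms studied here and may not hold every intronic name. These counts therefore describe the listed names only. miR-326-3p, from an intron of Arrb1, rose most (1.58 ± 0.33, edgeR adjusted p = 0.00143), with 138.6 ± 58.2 CPM over BDL libraries and 46.8 ± 13.3 CPM over sham libraries (SD, 6 a group). miR-140-5p, from an intron of Wwp2, fell most (-2.47 ± 0.45, edgeR adjusted p = 4.07e-04). The most abundant listed names, miR-486a-5p, whose counts equal those of miR-486b-5p, and miR-25-3p, had log2 fold changes of -0.49 ± 0.28 and -0.63 ± 0.35 (edgeR adjusted p = 0.162 and 0.16).

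**Figure D4:**
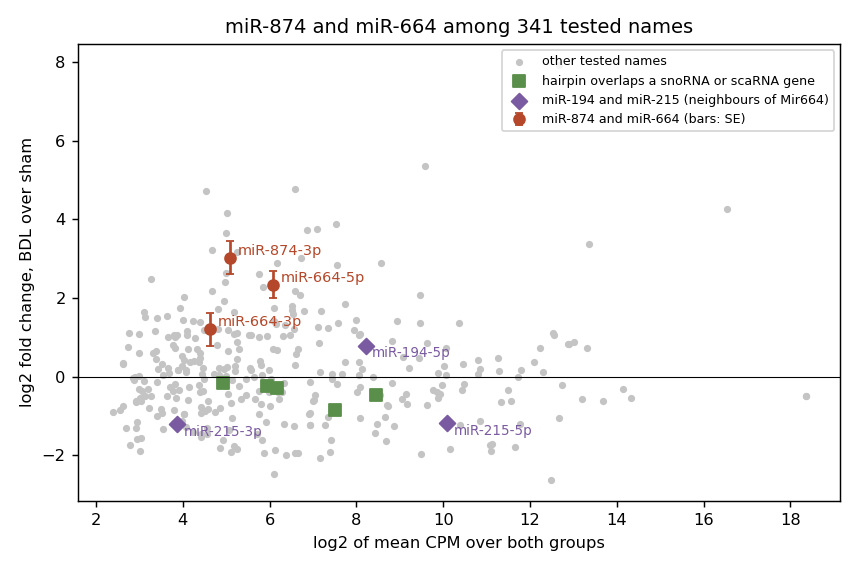
Log2 fold change of BDL over sham against log2 mean CPM for 341 tested names; bars on miR-874-3p, miR-664-5p and miR-664-3p are SE. The squares, 5 names whose hairpin overlaps a snoRNA or scaRNA gene, lie from -0.86 to -0.16, and the diamonds mark miR-194 and miR-215, whose hairpins are nearest to Mir664.

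The tested arms varied together across libraries beyond the group difference. With group means taken out, Pearson's r of log2 CPM over 12 libraries was 0.85 between miR-874-3p and miR-664-3p, 0.58 between miR-874-3p and miR-664-5p, and 0.55 between the miR-664 arms; without BDL 4 these were 0.73, 0.83 and 0.54. All libraries share their scaling factor between names, so part of such an r can come from scaling and depth. Each arm had, over 12 libraries with group means out, a higher r with other names, listed below. The r of other pairs of names is not given. Over the 12 libraries the names most like miR-874-3p were miR-342-3p (r = 0.946), miR-574-3p (0.946) and miR-22-5p (0.937). Those most like miR-664-5p were miR-99b-3p (0.922), miR-185-5p (0.911) and miR-501-3p (0.906), and those most like miR-664-3p were miR-145a-5p (0.936), miR-330-3p (0.933) and miR-339-3p (0.897). These 9 names were themselves past the threshold and higher in BDL, by 1.03 (miR-339-3p) to 2.07 (miR-99b-3p) on the log2 scale. Over all tested names 24.6% were called higher. An r over all 12 libraries includes the group difference by which the arms were chosen, so it favours names that also rise.

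With group means taken out, the likest names changed. For miR-874-3p they were miR-425-3p (r = 0.939), miR-130a-3p (0.937) and miR-324-3p (0.931), which became 0.653, 0.644 and 0.643 without BDL 4. For miR-664-5p they were miR-361-3p (0.759), miR-132-3p (0.730) and miR-330-5p (0.687), and for miR-664-3p miR-574-3p (0.926), miR-145a-5p (0.910) and miR-330-3p (0.906). Of these, miR-425-3p, miR-324-3p, miR-361-3p and miR-330-5p were not past the threshold between BDL and sham (edgeR adjusted p = 0.806, 0.274, 0.946 and 0.197), with log2 fold changes of 0.15, 0.59, 0.03 and -0.67.

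Base composition went with fold change over the table. RefSeq gave a mature sequence for 290 of the 341 tested names, and Spearman's rho between GC percent and log2 fold change was 0.476 across names, which are not independent replicates. In the GC-poorest of 3 equal parts 9 of 97 names rose and 35 fell, while 36 of 97 rose and 3 fell in the GC-richest part. miR-664-5p (57.1% GC) fell in the GC-richest part, where the median log2 fold change was 0.47, and miR-664-3p (40.9%) in the GC-poorest, where it was -0.62. For miR-664-5p 66.9% of the names had a lower GC, so it lies near the lower edge of its part. The Mir874 hairpin has 68.4% GC and the Mir664 hairpin 40.6%. Hairpin values cannot be set against the parts, which rest on mature sequences. The part of base composition in the rise was not tested.

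Markers of cells that can release vesicles into blood also moved between the groups; over all tested names 24.6% were higher and 18.2% lower. Sums below cover all listed names in the table, tested or not, while calls cover tested names only. Of 4 tested hepatocyte names (5 of the 6 listed are in the table), 3 were higher and 0 lower. The summed level of the 5 ran from 74806 to 327752 CPM in BDL, against 4019.9 to 25214 CPM in sham, led by miR-122-5p. Of 5 tested red cell names (6 listed) 0 were higher and 3 lower, with sums of 124876 to 378389 CPM in BDL and 358819 to 556218 CPM in sham. Of 5 tested leukocyte names 0 were higher and 3 lower, of 4 striated muscle names 0 and 3, of 3 platelet and endothelial names 0 and 2, of 2 neural names 1 and 1, and of 1 pancreas name 0 and 1. The summed leukocyte names had 562.5 to 2214 CPM in BDL, against 2805 to 6421 CPM in sham, and the summed platelet and endothelial names 631.4 to 2718 CPM in BDL, against 3195 to 8903 CPM in sham. Summed muscle names had 639.4 to 1740.2 CPM in BDL and 1150.4 to 2134 CPM in sham. Summed neural names had 1790.3 to 2813 CPM in BDL and 3474 to 6205 CPM in sham, and summed pancreas names 260.6 to 371.9 CPM in BDL and 394.6 to 659.8 CPM in sham. No listed name in the table was at 0 throughout. Over the 12 libraries, groups included, r with miR-122-5p was 0.69 for miR-874-3p, 0.82 for miR-664-5p and 0.33 for miR-664-3p. For the red cell name miR-451a it was -0.79, -0.85 and -0.63 in the same order. Such an r includes the group difference by which the arms were chosen. With group means taken out, r over 12 libraries with miR-122-5p was -0.37 for miR-874-3p, -0.17 for miR-664-5p and -0.49 for miR-664-3p, and with the red cell name miR-451a it was -0.11, -0.06 and -0.42 in the same order. Without BDL 4 these were -0.18, -0.10 and -0.38 with miR-122-5p, and -0.15, -0.05 and -0.53 with miR-451a. The part of any cell type in the rise of miR-874 and miR-664 was not tested.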

How the data were processed

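Small RNA from plasma vesicles was counted in 6 BDL and 6 sham libraries. The values deposited by the authors are raw counts of reads for each mature name, whole numbers with no normalisation. Per the submitters' processing notes, cutadapt and STAR were used; for versions, build and annotation, nothing is stated in the labels. The 67 names of other species were left out of library sizes and tests.

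The test was that of edgeR (version 4.0.16, under R 4.3.3: quasi-likelihood F test, trimmed-mean scaling, filter on low counts by group, Benjamini-Hochberg adjustment over 341 names). SE was taken as log2 fold change over the root of F, and log2 CPM per library has a prior count of 2. The procedure was tested on simulated counts. Other settings were DESeq2 1.42.0, limma-voom (limma 3.58.1), other scalings and filters, a block, summed or subset libraries, and leaving out each library.

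The 4 names and the lists were chosen with earlier results of these data known. Names beyond them follow a rule: highest correlations, and in each list the highest levels and largest called changes; for the marker lists only counts and sums are given, besides miR-122-5p and miR-451a. Reads carry no molecular identifiers, so intervals and floors cover counting error only. Positions are from GENCODE M21 (GRCm38), sequences from RefSeq (GRCm38.p6). The build the authors used may differ.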

Additional observations from a re-analysis of the deposited data

Results flagged for a closer look

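Among 10 groups of 6 values examined (the 3 tested arms, the miR-664 arm ratio and the total counts, in each group), 1 held a library far from the rest. Chance flags about 1 in 20 groups. The 10 groups share libraries, and the arm ratio is built from the miR-664 arms, so they are not independent. Whether 1 flag among them exceeds chance was not tested. The flagged value was miR-874-3p in BDL 4, at 3.19 log2 CPM, whose gap to the nearest BDL library was 0.707 of the range of the group. This library had the lowest total, 121003 counts, of which 1 was miR-874-3p.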

How the results depend on the processing

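The direction of miR-874-3p, miR-664-5p and miR-664-3p and of the miR-664 arm difference was the same under every alternative that gave a value. Each moved by less than the spread between libraries. Within suffix 26 alone miR-874-3p did not pass the count filter and has no value. The log2 fold changes of miR-874-3p, miR-664-5p and miR-664-3p ran from 2.79 to 3.13, 2.10 to 2.39 and 0.82 to 1.40 without each library in turn. Names higher in BDL fell to 54 of 265 tested in suffix 26 alone, where fewer names passed the filter. They ran from 65 to 89, and names lower from 54 to 70, without each library. The count of names whose BDL effect differed between suffixes, 8 as reported, was 21 with no count filter, 31 with DESeq2, 5 with the replicate block and 2 to 14 without each library; the cause was not tested. The sample numbers were not shown to pair libraries (r of same-numbered deviations -0.09 to 0.31). With the replicate block 72 names were higher and 61 lower, and miR-874-3p, miR-664-5p and miR-664-3p had 2.99, 2.25 and 1.18. The alternative for names with identical counts was not run, since 0 names shared the counts of a tested arm. Depth limits miR-874-5p most, with 7 reads in all.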

Other observations

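The hairpins nearest to Mir664 were looked up after the values were known. Mir194-1 and Mir215 lie 70.3 and 70.5 kb away, on the same strand as Mir664. Their positions fall within the span of Iars2, the gene of a mitochondrial tRNA synthetase, whose own strand was not compared. miR-215-5p had 669 ± 272 CPM in BDL and 1522 ± 397 CPM in sham (SD, n = 6 each; log2 fold change -1.18 ± 0.30, edgeR adjusted p = 0.00451), and miR-215-3p -1.21 ± 0.37 (edgeR adjusted p = 0.0148). miR-194-5p, which a second hairpin elsewhere can also give, had 374 ± 234 CPM in BDL and 220 ± 83.2 CPM in sham (log2 fold change 0.78 ± 0.40, edgeR adjusted p = 0.124). The difference between these names and the miR-664 arms was not tested.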
